A study of Mus musculus with 2 samples.

Results

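The genes described here are 7 microRNA (miRNA) genes known from blood vessels: the endothelial Mir126a, and Mir143, Mir145a, Mir214, Mir199a-1, Mir199a-2 and Mir199b of smooth muscle, pericytes and connective tissue. They were chosen by name, under a rule that uses no measured value but was written with earlier results of these data known, and make up 7 of the 1973 miRNA genes in the deposited tables. Small RNA was sequenced from the embryonic forebrain of B6NCrl mice at day 14.5, in 2 libraries (biological replicates 1 and 2), and the labels name no treatment or genetic change. Per the labels, each library came from a single forebrain collected on its own day, yet the sex is given as pooled and the donor identifier is shared. Differences between the replicates may therefore be technical in part. The libraries form 1 group, and no condition could be compared.

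As background, a miRNA gene is transcribed as a long primary RNA, from which a short hairpin is cut and trimmed to mature strands from its 5′ arm (5p) or 3′ arm (3p). Bases 2 to 8 of the mature strand, the seed, choose the target mRNAs. miR-126 lies within Egfl7, a gene of endothelial cells, and is known to sustain VEGF signalling and vessel integrity in the embryo. miR-143 and miR-145 come from a shared primary transcript and are known for promoting the contractile state of vascular smooth muscle. miR-214 and miR-199a-2 are made from the non-coding RNA Dnm3os and are known from mesenchyme and its derivatives.

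Mature sequences were matched in the RefSeq table (GRCm38.p6) for 5 of the 7 genes, Mir126a, Mir214, Mir199a-1, Mir199a-2 and Mir199b. They are shown because they decide which genes can be told apart by a short read. Capitals mark the seed, and sequences run 5′ to 3′.
miR-126a-3p (Mir126a): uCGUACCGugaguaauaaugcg
miR-214-5p (Mir214): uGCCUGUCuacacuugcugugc
miR-214-3p (Mir214): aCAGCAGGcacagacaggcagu
miR-199a-5p (Mir199a-1 and Mir199a-2): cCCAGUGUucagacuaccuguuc
miR-199a-3p (Mir199a-1 and Mir199a-2) and miR-199b-3p (Mir199b): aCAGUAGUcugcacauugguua

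The 8 mature entries of these genes hold only 5 distinct sequences with 5 distinct seeds. No 5p entry was matched for Mir126a or Mir199b, which does not mean that these strands are absent. The 3p sequence of the miR-199 genes is the same at all 3 loci, and the 5p sequence of Mir199a-1 and Mir199a-2 is the same at both. In the 5′ arm, the Mir199b hairpin differs from miR-199a-5p by a single base, C10U, counted from 1 at the 5′ end of miR-199a-5p, with the Mir199b base given last. This stretch of the Mir199b hairpin, with the differing base in capitals, and the hairpins of the 3 genes, with annotated mature arms in capitals, are the following.
Mir199b, bases 26 to 48: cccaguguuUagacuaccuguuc
Mir199a-1: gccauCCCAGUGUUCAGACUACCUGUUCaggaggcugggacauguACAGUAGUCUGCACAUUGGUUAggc
Mir199a-2: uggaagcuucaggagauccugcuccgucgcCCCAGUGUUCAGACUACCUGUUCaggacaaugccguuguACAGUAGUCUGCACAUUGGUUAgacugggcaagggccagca
Mir199b: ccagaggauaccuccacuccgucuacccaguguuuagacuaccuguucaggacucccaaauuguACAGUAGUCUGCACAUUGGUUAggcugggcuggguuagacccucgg

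The tables keep reads that match several places in a total of their own, outside the gene counts, which was 43.3% of all reads in replicate 1 and 42.2% in replicate 2. Mir126a, Mir143, Mir145a and Mir214 shared no stretch of 20 nt with another annotated miRNA hairpin, on either strand. For the miR-199 genes, 17 of 51 windows of 20 nt were shared in Mir199a-1, 16 of 91 in Mir199a-2 and 10 of 91 in Mir199b, in each case with the other miR-199 genes and with no further gene. Reads that lie wholly within the common 3p sequence are thus not in any of the 3 counts, and the level of miR-199a-3p cannot be read from them. Of other mature sequences in the RefSeq table, only miR-761 has a seed found here, that of miR-214-3p, and its gene Mir761 had 0 counts in both libraries.

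**Figure D1:**
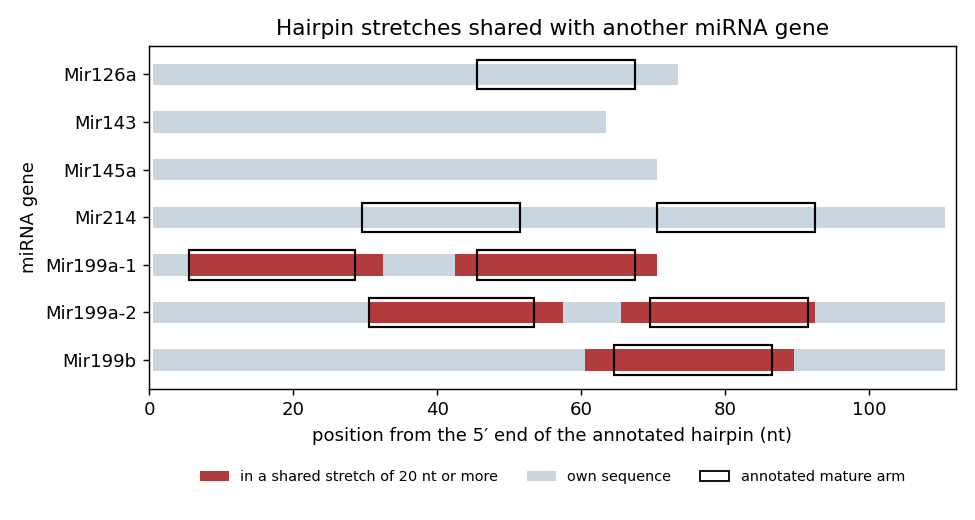
Each bar is an annotated hairpin of one of the 7 genes, drawn by position from its 5′ end in nt. Red marks bases in a stretch of 20 nt or more shared with another miRNA gene, grey marks own sequence, and black outlines are mature arms in the RefSeq table for the 5 matched genes. The 5′ arms of Mir126a and Mir199b have no outline because no entry was matched for them. Red covers both outlined arms of Mir199a-1 and Mir199a-2 and the outlined arm of Mir199b, and is absent from the other 4 genes.

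Counts on the strand of the gene summed to 7080317 in replicate 1 and 7946585 in replicate 2, and levels are given as CPM, the count per 1000000 of these. One count was worth 0.141 and 0.126 CPM. A read of this size class spans most of a mature strand, so CPM was not divided by length. Per 100 nt of annotated hairpin, all 7 genes kept the same places in the order in both libraries. On that scale Mir214 (122.9 and 122.4) and Mir145a (114.8 and 109.3) lay closer together than in CPM, and no intervals were computed. Intervals and limits are for counting error alone, and PCR copies of a molecule count as separate reads in them.

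Together the 7 genes held 2.61% ± 0.0482 of the miRNA counts (SD, n = 2), and Mir126a alone held 85.1% ± 0.860 of that sum. The 6 smooth muscle or stromal genes summed to 3900 ± 297 CPM, of which Mir143 was 92.6% ± 0.653. Detection was set at a count of 10 or more in each library, which 6 of the 7 genes passed, against 399 of 1973 genes in all. In bulk tissue, fewer cells of a type and less RNA per cell cannot be told apart.

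**Figure D2:**
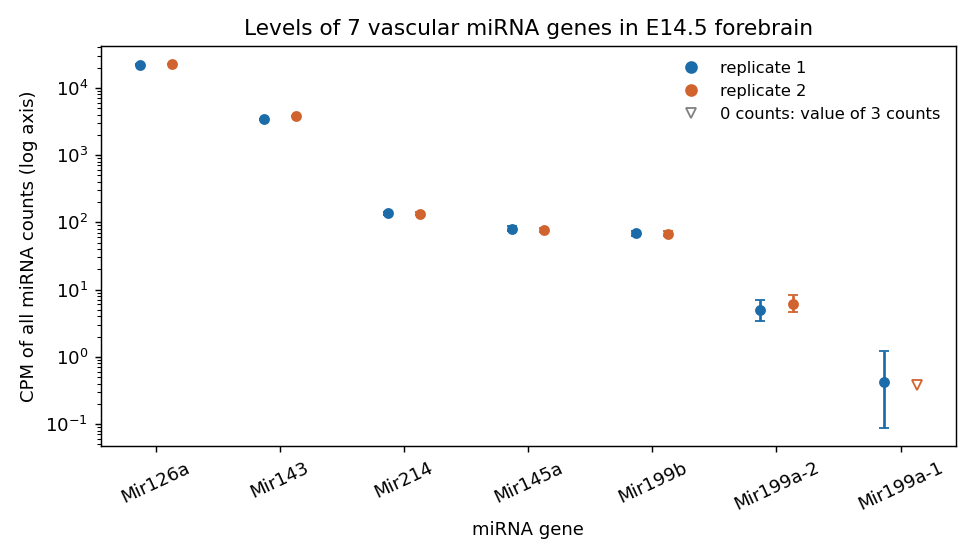
CPM of each gene (log axis) in replicate 1 (blue) and replicate 2 (orange), with exact 95% Poisson intervals of the counts. The open triangle stands at the CPM of 3 counts for Mir199a-1 in replicate 2, which had 0 counts. The libraries lie close together for every gene above 10 CPM, with Mir126a near 22234 CPM and Mir143 near 3612 CPM.

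Mir126a (ENSMUSG00000065540.1) lies at chr2:26591357-26591429 on the plus strand of mm10, within an exon of Egfl7, and also within an intron of the overlapping gene model Gm20532. It had 156496 counts in replicate 1 and 177725 in replicate 2, or 22103 CPM (95% exact Poisson interval 21994 to 22213) and 22365 CPM (22261 to 22469). It ranked 10th of all miRNA genes in each library, with 97.2% of detected genes below its mean. The gene next above in mean CPM was Mir30e, of the widely expressed miR-30 family, at 25304 and 20977 CPM, a range that includes both values of Mir126a. The gene next below was Mir181c, at 14627 and 15781 CPM, which did not overlap with Mir126a.

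Mir143 (ENSMUSG00000065445.2) and Mir145a (ENSMUSG00000065592.1) lie on the minus strand at chr18:61649196-61649258 and chr18:61647825-61647894, 1301 nt apart, and GENCODE M21 places neither within another gene on either strand. These positions are from M21, whose versions of both entries are later than those in the tables. Mir143 had 24074 and 30394 counts in replicates 1 and 2, or 3400 CPM (3357 to 3443) and 3825 CPM (3782 to 3868), and stood 47th and 41st among all genes. Mir872 above it (3820 and 3467 CPM) and Mir127 below it (3249 and 3930 CPM) both overlapped with its range.

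Mir145a had 569 and 608 counts, or 80.4 CPM (73.9 to 87.2) and 76.5 CPM (70.5 to 82.8), at places 200 and 203. Its intervals in the 2 libraries overlapped. Next to it in the order were Mir7j (78.2 and 79.4 CPM) and Mir592 (80.2 and 74.1 CPM), which could not be separated from it. Mir145b, a separate gene on the same chromosome that shares no stretch of 20 nt with Mir145a, had 0 counts in both libraries. With 3 counts taken as the limit for a count of 0, this allows up to 0.424 and 0.378 CPM. The exact Poisson interval used for the other values would reach higher, to 0.464 CPM in replicate 2.

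Mir214 (ENSMUSG00000065516.1, chr1:162223368-162223477, plus strand) lies in an exon of Dnm3os, which runs antisense to an intron of the dynamin gene Dnm3. It had 957 and 1070 counts, or 135 CPM in each library (126.7 to 144.0 in replicate 1 and 126.7 to 143.0 in replicate 2), at place 177 in both. The coefficient of variation over the libraries was 0.270%, against 0.833% for Mir126a and 8.31% for Mir143. For Mir214 it depended on scaling: the SD was 0.364 CPM with plain totals, 4.90 with edgeR's TMM factors and 6.93 with DESeq2 size factors. Its counting intervals are wider than these SDs, so the value does not make Mir214 steadier than the other genes. Mir331 (144 and 135 CPM) and Mir329 (146 and 123 CPM), its neighbours in the order, overlapped with it.

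Mir199a-2 (ENSMUSG00000070126.1, chr1:162217814-162217923) lies 5444 nt upstream of Mir214 on the same strand, also in an exon of Dnm3os. It had 35 and 49 counts, or 4.94 CPM (3.44 to 6.87) and 6.17 CPM (4.56 to 8.15). The intervals overlapped, and Mir1224 next above it (5.37 and 5.79 CPM) lay within them. Next below was Mir669f, with 7 and 73 counts.

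Mir199b (ENSMUSG00000092807.1, chr2:32318460-32318569, plus strand) lies antisense to an intron of Dnm1. It had 487 and 535 counts, or 68.8 CPM (62.8 to 75.2) and 67.3 CPM (61.7 to 73.3), at places 213 and 209, between Mir24-2 (73.7 and 63.7 CPM) and Mir669c (76.0 and 57.0 CPM). The gene model Gm23363, 116 nt away on the same strand, had 0 counts and 1 count. Mir199a-1 (ENSMUSG00000065547.1, chr9:21496495-21496564, minus strand), antisense to an intron of Dnm2, had 3 counts in replicate 1 and 0 in replicate 2. Because its arms occur at other loci, a count of 0 sets no upper limit on its transcription. Of the 73.8 ± 0.466 CPM assigned to the 3 miR-199 genes, Mir199b held 92.8% and 91.6%. This share ranks uniquely assigned reads, and the reads the loci have in common were not analysed here.

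**Figure D3:**
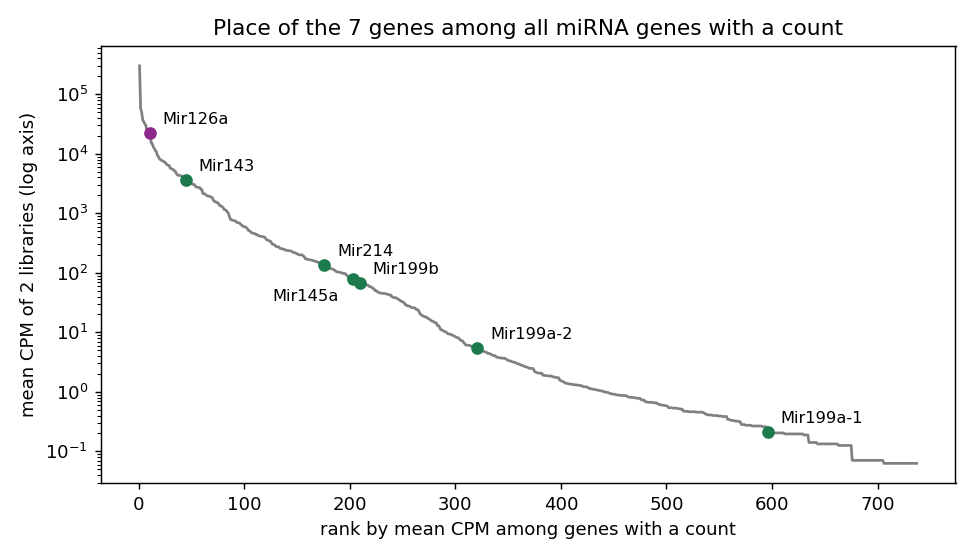
Mean CPM of the 2 libraries (log axis) against rank for the 737 miRNA genes with a count. Mir126a (purple) stands 11th by mean, Mir143 45th, Mir214, Mir145a and Mir199b between 176 and 210, Mir199a-2 at 321 and Mir199a-1 at 596 (green).

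In CPM, the order was the same in both libraries: Mir126a, Mir143, Mir214, Mir145a, Mir199b, Mir199a-2, Mir199a-1. Mean CPM was 6.16-fold higher in Mir126a than in Mir143 and 26.8-fold higher in Mir143 than in Mir214. It was 1.72-fold higher in Mir214 than in Mir145a, and 12.3-fold higher in Mir199b than in Mir199a-2. Mir145a and Mir199b, 1.15-fold apart, had overlapping counting intervals and are not separated at this depth. The other steps had intervals in CPM that did not overlap. Those from Mir199b to Mir199a-2 and on to Mir199a-1 compare uniquely assigned reads only. Both arms of Mir199a-1 and Mir199a-2 are shared, and the 5′ arm of Mir199b is not, so these steps do not rank the levels of the miR-199 genes.

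Differences between the libraries are given beside those of all genes, and no trait of the 7 genes is read from them. Each of the 737 genes with a count was set against the rest of the miRNA counts in a two-sided Fisher's exact test, adjusted by Benjamini-Hochberg over all of them. The test speaks of these 2 libraries, and its only source of error is counting. Of the 7 genes, 0 were called at an adjusted p under 0.05 with at least a 2-fold difference, against 1.49% of all genes tested (11 of 737). With no minimum fold 2 passed, both higher in replicate 2 and both also with an unadjusted p under 0.05, against 26.3% of all genes in either direction and 9.36% toward replicate 2 (17.0% passed toward replicate 1). With counts this large, small ratios pass: Mir126a was 1.01-fold higher in replicate 2 (95% exact interval 1.005 to 1.019, Fisher's exact test, adjusted p = 0.00262), and Mir143 was 1.12-fold higher (1.11 to 1.14, Fisher's exact test, adjusted p = 1.54e-41).

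The ratio of replicate 2 over 1 was 0.952 for Mir145a (0.848 to 1.07), 0.996 for Mir214 (0.912 to 1.09), 0.979 for Mir199b (0.864 to 1.11) and 1.25 for Mir199a-2 (0.792 to 1.98). None of these 4 passed Fisher's exact test (adjusted p from 0.627 to 1), and neither did Mir199a-1, for which no ratio is given. Detected genes as a whole lay a median of 1.17-fold apart. The median log2 ratio of the 7 genes was -0.01 with Mir199a-1 set to the value of 3 counts where it had 0, and that of all genes tested was -0.13. Scaling set the sign of the small ratios. With edgeR's TMM factors Mir145a, Mir214 and Mir199b stood at 1.01, 1.05 and 1.03, and with DESeq2 size factors at 1.03, 1.08 and 1.06, while Mir126a reached 1.07 and 1.09 and Mir143 1.19 and 1.21. DESeq2 size factors moved the median log2 ratio of all genes from -0.13 to -0.02. The genes that passed numbered 69 higher in replicate 2 and 125 higher in replicate 1 with plain totals, 85 and 96 with TMM, and 99 and 88 with DESeq2 size factors.

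**Figure D4:**
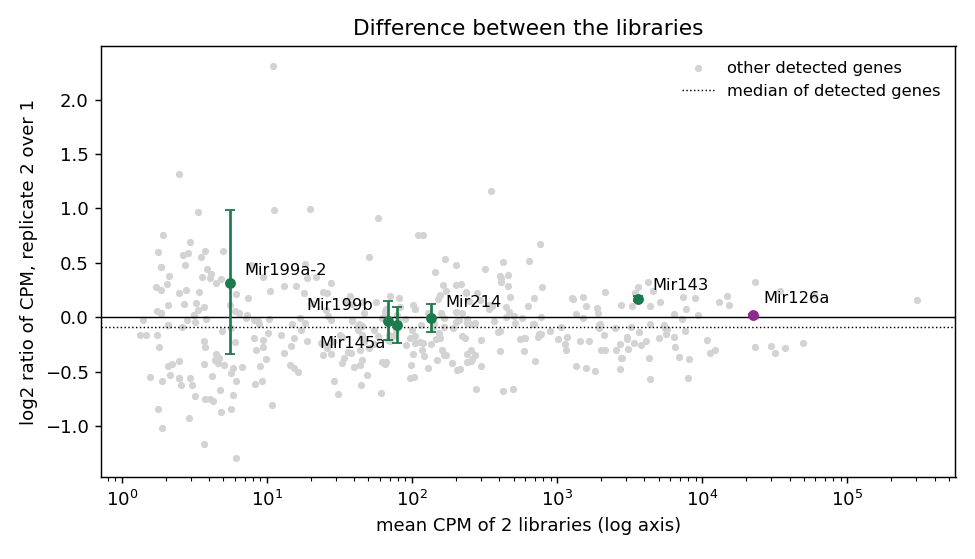
Log2 ratio of CPM, replicate 2 over 1, against mean CPM (log axis) for detected genes. Grey points are other genes, the dotted line is the median of detected genes, and coloured points with 95% exact intervals are the 6 detected vascular genes. Mir126a, Mir214, Mir145a and Mir199b lie close to the solid line at 0, Mir143 lies above it, and the interval of Mir199a-2 spans it.

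Genes made from the same primary transcript did not have equal counts. Mir143 exceeded Mir145a by a count ratio of 42.3 in replicate 1 (95% exact interval 38.9 to 46.1) and 50.0 in replicate 2 (46.1 to 54.3). The ratio was 1.18-fold higher in replicate 2 (Fisher's exact test, adjusted over 3 ratios, p = 0.00725). For comparison, 76 neighbouring pairs were taken within 10 kb on a strand, both detected and with own sequence. They include Mir143 and Mir145a, and a gene can occur in several pairs. The pairs had a median ratio of 5.49, with a range of 1.02 to 1460, and 15 of them exceeded that of Mir143 and Mir145a. Such pairs changed by a median of 1.14-fold between the libraries. Mir214 exceeded Mir199a-2 by a ratio of 27.3 (19.5 to 39.5) in replicate 1 and 21.8 (16.4 to 29.7) in replicate 2, a difference that did not pass Fisher's exact test (adjusted p = 0.372), and reads from the shared arms of Mir199a-2 are missing from this ratio.

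Set against the smooth muscle or stromal genes, Mir126a had 5.99 counts per count of their sum in replicate 1 (5.91 to 6.07) and 5.44 in replicate 2 (5.38 to 5.51), a 1.10-fold higher ratio in replicate 1 (Fisher's exact test, adjusted over 3 ratios, p = 4.1e-26). That difference rested on Mir143. Without it, the ratio to the other 5 genes was 76.3 in replicate 1 and 78.6 in replicate 2, the opposite direction, and did not pass (Fisher's exact test, adjusted p = 0.372). No spread within a condition stands behind these p-values, which describe the 2 libraries.

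Other miRNAs linked to vessels were also present. Of the 9 other endothelium-associated genes analysed all were detected, with 4.02% ± 0.290 of the counts. Of these 9 genes, 5, with Mir23a and Mir23b among them, share 20 nt or more of hairpin with another gene and can be undercounted. The list was led by Mir130a, a regulator of endothelial growth that many other cell types also make (32516 and 27077 CPM), and by Mir23b and Mir23a of the miR-23, miR-27 and miR-24 clusters (5148 ± 356 and 4226 ± 671 CPM). None was called at 2-fold. With no minimum fold 5 of 9 passed Fisher's exact test, against 26.3% of all genes: Mir23a and Mir23b were higher in replicate 2, and Mir130a, Mir221 and Mir222 higher in replicate 1. The 26.3% is over all 737 genes with a count, of which 399 were detected, and genes of few counts seldom pass. A larger share passing in this or the following lists is therefore not read as a trait of the list. The median log2 ratio of the list was -0.08, and that of all genes tested -0.13. The hypoxia-induced Mir210 stood at 211 ± 2.79 CPM.

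Of 10 other mural or stromal genes analysed, 5 were detected, and the list held 0.680% ± 0.0981 of the counts. Of these 10 genes, 6 share 20 nt or more of hairpin with another gene and can be undercounted. Mir21a, abundant in fibroblasts and many dividing cells, stood at 3788 ± 467 CPM, Mir22 at 2751 ± 502 CPM, and Mir29a, a repressor of collagen genes, at 166 ± 0.812 CPM. Of the 6 with a count 3 passed with no minimum fold, all higher in replicate 1, against 17.0% of all genes in that direction: Mir21a, Mir22 and Mir29c. The median log2 ratio of these 6 was -0.31. The muscle genes Mir133a-1, Mir133a-2 and Mir1a-1 had 0 counts, and their hairpins share sequence with another gene.

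Markers of other cells of the tissue give the setting of these values. Blood and immune genes, which travel with vessels, held 0.0663% ± 0.0101 of the counts (0.0591% and 0.0734% in replicates 1 and 2), against 2.22% ± 0.0185 for Mir126a. Of the 8 genes of this list 6 were analysed and all 6 were detected. The share leaves the others out and can be too low. The erythroid Mir451a was higher in replicate 2 (396 and 518 CPM), as Mir143 was, and Mir144, of the same erythroid cluster, was called at 4.97-fold higher there (26 and 145 counts, Fisher's exact test, adjusted p = 1.63e-17). The myeloid Mir223 stood at 76.0 and 86.1 CPM, and Mir155 was lower in replicate 2 (72.9 and 65.1 CPM). Of the 6 blood and immune genes, 5 had higher CPM in replicate 2 and 1 in replicate 1, with a median log2 ratio of 0.20. With no minimum fold 2 of the 6 passed, both higher in replicate 2 (9.36% of all genes). The epithelial list held 0.162% and 0.215%, with 7 of 7 detected. Its sum is mostly Mir203 at 1.12-fold, while the median log2 ratio of the list was 0.91. Of its 7 genes 6 passed with no minimum fold, all higher in replicate 2 (9.36% of all genes), and Mir429 was called, at 2.23-fold. The choroid plexus or ciliated list held 0.808% and 0.667%, with 7 of 7 detected and a median log2 ratio of -0.29. Of its 7 genes 4 passed with no minimum fold, all higher in replicate 1 (17.0% of all genes), and Mir449c was called, with 61 and 28 counts. Of all detected genes, 62.2% had higher CPM in replicate 1. Neural genes held 1.49% and 1.38%, with 9 of 10 detected, led by Mir137 of neurons at 7614 ± 481 CPM. The median log2 ratio of the neural list was 0.06. Of its 10 genes 6 passed with no minimum fold, 2 higher in replicate 2 and 4 higher in replicate 1. The 7 neural genes of miR-124, miR-9 and miR-128 have hairpins with a stretch of at least 20 nt in common with another gene, where a count can be too low. The neural share may therefore understate neural miRNAs. Whether these differences bear on the higher Mir143 of replicate 2 was not tested.

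**Figure D5:**
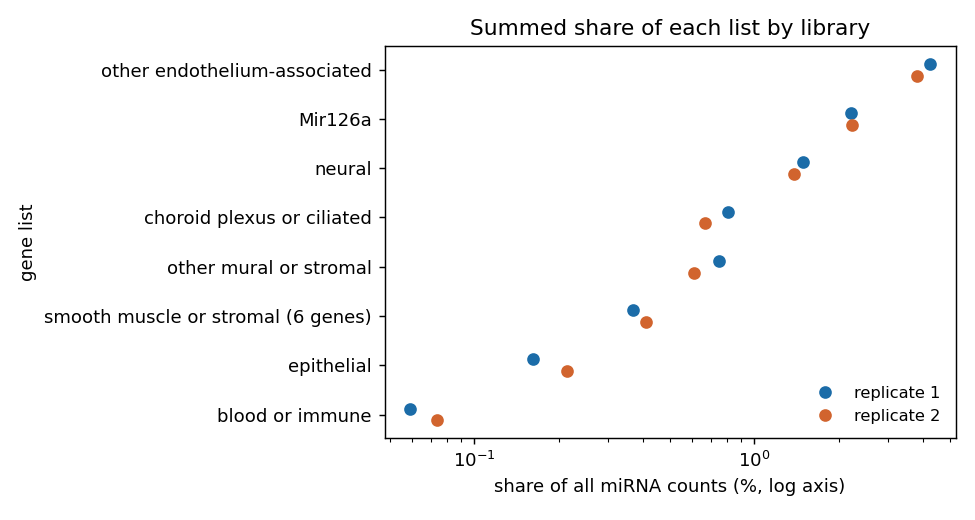
Summed share of all miRNA counts (%, log axis) of each gene list in replicate 1 (blue) and replicate 2 (orange). Mir126a, as a single gene, and the other endothelium-associated list lie above the neural list. The 6 smooth muscle or stromal genes lie between the epithelial and the other mural or stromal lists. Replicate 2 lies to the right for the smooth muscle or stromal, epithelial and blood or immune lists, and slightly for Mir126a (2.21% and 2.24%). Genes that share sequence with another hairpin can be undercounted. They number 7 of 10 (neural), 5 of 9 (other endothelium-associated), 6 of 10 (other mural or stromal) and 3 of 6 (smooth muscle or stromal).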

How the data were processed

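Small RNA was sequenced in 2 libraries of 1 group. The authors deposited whole-number read counts per miRNA gene, 1 table per library, with 3 columns (either strand, the gene's own strand, the other strand) and 4 totals that name no gene. Per the text files deposited with the samples, counts come from alignments to mm10 with GENCODE M4. No aligner or counter is named in the sources used here. The 4 totals, 61.9% and 61.5% of reads, entered neither library sizes nor tests.

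Own-strand counts were scaled to CPM. Names and positions came from GENCODE M21 on the same assembly (1894 of 1973 identifiers matched without their version), and sequences from RefSeq. Fisher's exact test was used because 1 library a side leaves edgeR's quasi-likelihood test no residual degrees of freedom. It was run on simulated counts with counting error alone, which says nothing of variation between libraries. Factors came from edgeR 4.0.16 and DESeq2 1.42.0, and tests from scipy 1.17.1. Intervals are 95% (Poisson for counts, Clopper-Pearson for ratios). The genes named are the 7 genes, their neighbours in the order of mean CPM, gene models within 10 kb or sharing 20 nt, and up to 3 of the highest genes of each marker list. Mir29c, Mir221, Mir222, Mir210, Mir133a-1, Mir133a-2, Mir1a-1, Mir144, Mir449c, Mir145b and Mir761 were named after their values were seen, as was the comparison of neighbouring pairs chosen. The members and lists were chosen with earlier results of these data known. Alternatives covered scaling, strand, filters, the minimum fold, the count minimum and leaving out a library.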

Additional observations from a re-analysis of the deposited data

Results flagged for a closer look

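Counts on the opposite strand, which no comparison uses, lay above 3 counts, the limit taken here for a count of 0, at 1 of the 7 genes. At Mir126a they numbered 8 in replicate 1 and 4 in replicate 2, or 0.00511% and 0.00225% of the reads at this position, against 1.37% and 1.42% over all miRNA genes. GENCODE M21 places Mir126b there on the minus strand, at chr2:26591363-26591420, a gene that was not analysed here. Mir214 had 1 such count in each library, and the other 5 genes had 0.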

How the results depend on the processing

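With a library left out, the value is that of the other library, which says nothing about stability: Mir126a ranged from 22103 to 22365 CPM, the smooth muscle or stromal sum from 3690 to 4109 CPM, and the ratios from 42.3 to 50.0 (Mir143 over Mir145a), 21.8 to 27.3 (Mir214 over Mir199a-2) and 5.44 to 5.99 (Mir126a over the sum). Levels moved with the total they are divided by, as its construction implies. Mir126a stood at 31835 CPM with a total without Mir99a, 24383 over genes with under 20 nt shared, 21924 with either strand and 8513 per 1000000 reads of any kind. The sum stood at 5590, 4277 and 1494 in the first, second and last of these. The 2-fold calls over all genes, 11 with the main settings, numbered 17 among genes with 10 or more counts, 26 at 1.5-fold, 194 with no minimum fold and 7 with adjustment over all 1973 genes, an alternative added after seeing the data. Among the 7 genes, 2 were called with no minimum fold and 0 in the other settings run. The ratio of Mir126a to the sum turned its direction between libraries without Mir143 (mean 77.4), also added after seeing the data, and the cause was not tested. No paired analysis was possible because the libraries form 1 group. Counts of 35 and 49 limit Mir199a-2, and uniquely assigned reads limit all miR-199 values.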
